A study of Mus musculus with 6 samples.

Results

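Wnt ligands, their Frizzled receptors and their secreted modulators were followed in leg muscle of fetal mice at embryonic day 18.5, in 3 WT samples and 3 KO samples. The genes were taken by symbol from the count table of the series: all protein-coding Wnt ligands, Frizzled receptors, secreted Frizzled-related proteins (Sfrp), Dickkopf proteins (Dkk), R-spondins and their Lgr receptors, with the co-receptors *Lrp5* and *Lrp6* and the target gene *Axin2*. This gave 47 of the 56262 genes listed, and 45 of them were among the 22071 genes that passed the filter on low counts. KO fetuses lack *SYISL*, a long noncoding RNA transcribed across an intron of *Synpo2* on the same strand, and WT fetuses carry it. Mating was within a genotype, so that the genotype of the mother and that of the fetus cannot be told apart. The labels do not say whether the samples of a genotype came from separate litters or pooled fetuses, and p-values measure only the spread between these samples.

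Wnt proteins are lipid-modified secreted signals that act over short distances. They bind Frizzled receptors, and together with Lrp5 or Lrp6 this stabilizes beta-catenin, which enters the nucleus and activates genes such as *Axin2* with factors of the TCF/LEF family, whereas other Wnt proteins act through Frizzled and Ror receptors on cell polarity. Sfrp proteins bind Wnts outside the cell, Dkk proteins block the co-receptors, and R-spondins act through Lgr receptors to keep Frizzled at the surface. In the limb, Wnt signals come from the surface ectoderm as well as from mesenchyme, nerve and muscle, and they act on the patterning of the limb, on myogenesis and on the growth of skin and hair.

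The samples held 82054811 to 102233181 counts, at which 3 counts, the upper limit that a count of 0 allows, equal 0.0293 to 0.0366 CPM (the count relative to the library total, here unscaled). This limit covers counting error only. *SYISL* has no entry under that name in the gene annotation, and its host gene *Synpo2* rose, with means of 136 and 214 CPM (log2 fold change of KO over WT 0.66, edgeR adjusted p = 2.89e-05). Muscle fibre markers were present in all samples, with a summed level of 19441 to 21873 CPM in WT and 41053 to 49332 CPM in KO. At an edgeR adjusted p under 0.05 and over 1.5-fold, 8 of the 9 rose (8.31% of all genes tested). Keratinocyte markers, which belong to the epidermis, were also present in a tissue labelled leg muscle. By the same rule, 6 of 7 basal keratinocyte markers fell, and all 12 suprabasal ones fell (8.39% of all genes tested). WT replicate 2 had the highest value of the WT samples for 38.4% of all genes tested, for 6 of the 7 basal and for all 12 suprabasal markers.

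Of the 45 genes tested, 10 fell in KO, with an edgeR adjusted p under 0.05 and more than 1.5-fold, the rule for all calls below. That is 22.2% of them, where 8.39% of all genes tested fell. The 10 were 7 Wnt ligands (*Wnt3*, *Wnt3a*, *Wnt6*, *Wnt7a*, *Wnt7b*, *Wnt9b* and *Wnt10a*), the receptors *Fzd3* and *Fzd10*, and the antagonist *Dkk4*. None of the 45 rose under the same edgeR rule, where 8.31% of all genes tested rose. DESeq2 and limma-voom also called 0 of them higher. At an unadjusted p under 0.05, edgeR gave 14 with a higher level in KO (31.1%, against 25.3% of all genes tested, with 26.6% lower), none of the 14 by over 1.5-fold, the largest difference being the 1.41-fold of *Wnt11*. The median log2 fold change was -0.06 over the 45 genes and -0.00 over all genes. The plot of log2 fold changes by family marks the 10 genes, and only the 1.5-fold threshold parts *Fzd3* (-0.60) from *Wnt10b* (-0.54).

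**Figure D1:**
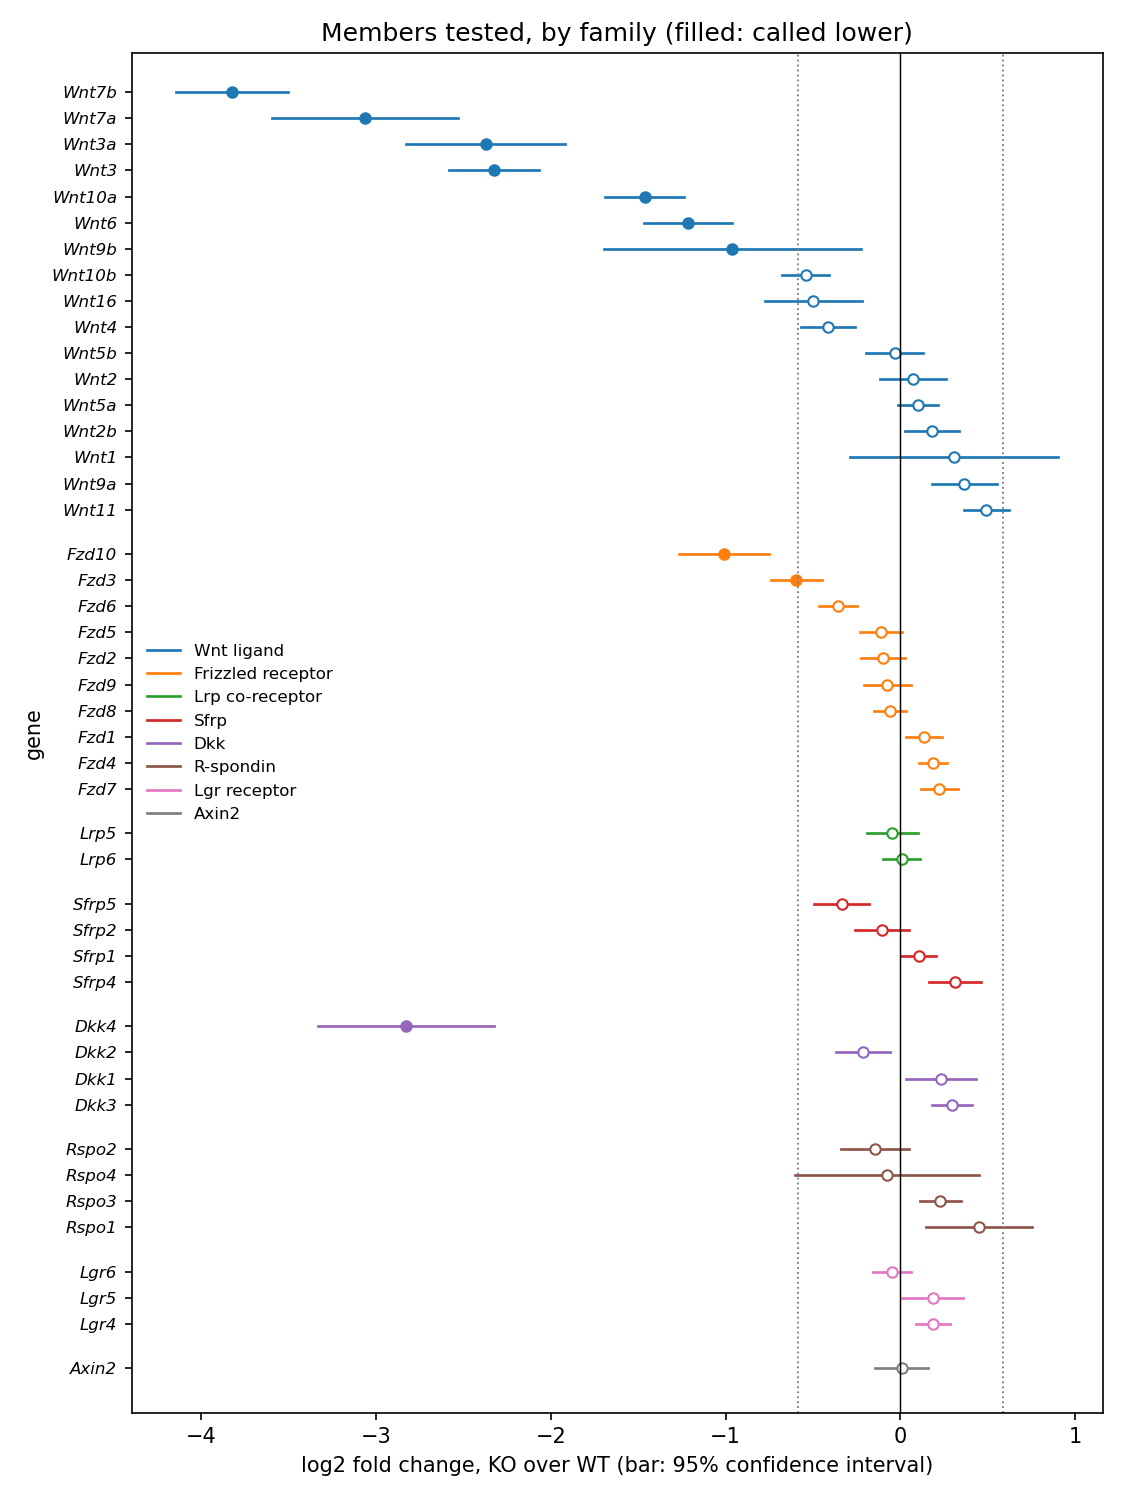
Log2 fold change of KO over WT for the 45 genes tested, grouped by family, with the 95% confidence interval as a bar, where filled points are the 10 genes called lower and dotted lines mark a 1.5-fold difference. *Wnt7b* lies farthest to the left at -3.82, and the higher values end at 0.49 with *Wnt11*.

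A further 16 genes passed the adjusted p but differed by less than 1.5-fold. Of these, 10 were higher in KO (22.2% of the 45, against 13.6% of all genes) and 6 were lower (13.3%, against 14.7% of all genes). For the other 19 the adjusted p was 0.05 or more, which does not show that their levels were alike. In 17 genes every KO sample was below every WT sample (37.8%, against 28.5% of all genes), and in 13 every KO sample was above (28.9%, against 27.3%).

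Among the Wnt ligands, *Wnt7b*, a ligand of surface epithelium that acts through beta-catenin, had the largest fall. Its level was 25.8, 37.7 and 30.8 CPM in the WT samples and 2.40, 2.11 and 2.15 CPM in the KO samples. The log2 fold change was -3.82 ± 0.14 (SE; edgeR adjusted p = 1.05e-07), so that KO held 7.06% of the WT mean. The 3 KO samples lay close together and far below the lowest WT sample, WT replicate 1. An antisense gene, *AU022754*, overlaps *Wnt7b* and held 9 to 43 counts, at most 7.96% of the counts of *Wnt7b* in a sample.

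*Wnt7a*, the closest relative of *Wnt7b* and known in muscle for effects on satellite cells, was found at 1.58, 1.74 and 1.61 CPM in WT and at 0.299, 0.136 and 0.154 CPM in KO. It fell by 3.06 ± 0.24 on the log2 scale (SE; edgeR adjusted p = 6.58e-06). The KO values rest on 13 to 28 counts a sample, and none of them reached the WT samples, which had 144 to 170 counts.

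*Wnt3*, a beta-catenin ligand of the limb ectoderm, was at 8.44, 10.1 and 8.46 CPM in WT and 2.06, 1.58 and 1.74 CPM in KO (log2 fold change -2.32 ± 0.12, SE; edgeR adjusted p = 4.07e-07). Its paralog *Wnt3a* was at 1.20, 1.501 and 1.17 CPM in WT and 0.309, 0.189 and 0.247 CPM in KO (log2 fold change -2.37 ± 0.20, SE; edgeR adjusted p = 1.30e-05). The KO means were 19.9% and 19.2% of the WT means, and in both genes the highest WT sample was WT replicate 2.

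*Wnt10a*, a ligand of skin, tooth and hair placodes, was at 2.88, 3.26 and 3.17 CPM in WT and 1.15, 1.07 and 1.15 CPM in KO (log2 fold change -1.46 ± 0.10, SE; edgeR adjusted p = 3.11e-06). *Wnt6*, expressed in surface ectoderm, was at 6.91, 8.05 and 6.83 CPM in WT and 3.57, 3.10 and 2.71 CPM in KO (log2 fold change -1.21 ± 0.11, SE; edgeR adjusted p = 2.16e-05). Both fell less than *Wnt7b*, *Wnt7a*, *Wnt3* and *Wnt3a*, and for neither did the samples of the genotypes overlap. The antisense gene *Gm29539* overlaps *Wnt6* with 10 to 37 counts, at most 6.82% of its counts.

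*Wnt9b*, which acts in kidney tubule formation, was close to the limit of detection with 21, 17 and 20 counts in WT and 14, 6 and 10 counts in KO. Its levels were 0.222, 0.206 and 0.189 CPM in WT and 0.149, 0.0630 and 0.103 CPM in KO (log2 fold change -0.96 ± 0.33, SE; edgeR adjusted p = 0.0375). The samples did not overlap, but the call was lost under DESeq2 (adjusted p = 0.153), with upper-quartile scaling, with the replicate number as a block (adjusted p = 0.0563), and without any of WT replicates 1, 2 and 3 or KO replicates 2 and 3, where the edgeR adjusted p was 0.0726 to 0.118. Of 13 alternatives, 5 kept it.

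**Figure D2:**
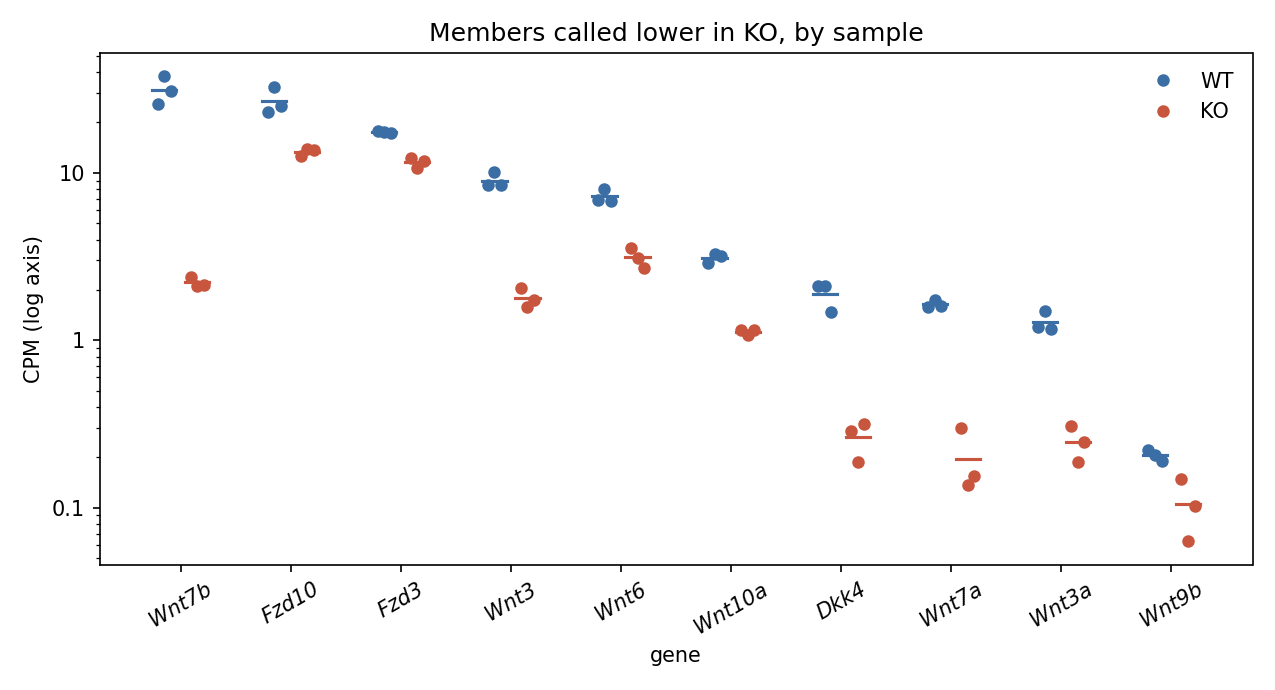
CPM (log axis) of the 10 genes called lower in KO, with a point for each of the 3 WT and 3 KO samples and a line at the mean of each genotype, ordered by the WT mean. The genotypes are farthest apart in *Wnt7b*, where 25.8 to 37.7 CPM in WT stand against 2.11 to 2.40 CPM in KO. The means are closest in *Fzd3*, and the sample ranges in *Wnt9b*, with 0.189 CPM or more in WT and 0.149 CPM or less in KO.

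Several of these genes are neighbours on a chromosome (coordinates are those of GENCODE M21 on GRCm38, the assembly of mm10). *Wnt6* (chr1:74771892-74785322) and *Wnt10a* (chr1:74791516-74804179) are 6.19 kb apart on the plus strand, and both fell. *Wnt9b* (chr11:103727364-103749821, minus strand) and *Wnt3* (chr11:103774150-103817957, plus strand) are 24.3 kb apart and also both fell. In contrast, *Wnt3a* (chr11:59248033-59290752, minus strand) fell while *Wnt9a* (chr11:59306928-59333552, plus strand), 16.2 kb away, was higher in KO at 16.2, 19.3 and 19.1 CPM against 15.1, 13.1 and 14.1 CPM in WT (log2 fold change 0.36 ± 0.08, SE; edgeR adjusted p = 0.00574, less than 1.5-fold). In the last pair, *Wnt10b* and *Wnt1*, 11.7 kb apart on chromosome 15, the log2 fold changes were -0.54 and 0.31, and neither was called. *Wnt7b* (chr15:85535437-85582473) and *Wnt7a* (chr6:91363981-91411363) have no neighbour of the family within 50 kb.

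Promoter sequences are shown for ligands that fell and for the ligand with the largest higher level in KO. RefSeq promoters (build GRCm38.p6) were found for 30 of the 47 genes, with 33 starts in all, among them 6 of the 10 that fell. In the 250 bases before the start, the TCF/LEF motifs CTTTGAA and CTTTGAT were searched on both strands, where they read TTCAAAG and ATCAAAG. They were found in 3 of the 33 (9.09%), where 7.48% of all 32851 promoters held one. The 3 were starts of *Wnt11*, *Dkk1* and *Wnt5b*, and 0 of the 6 genes that fell had a match, nor did *Axin2*, in this window. The content of G and C was 68.0% to 87.6% in the 6, with a median of 77.0%, against medians of 66.8% in the other 24 genes, taking the first start of each, and 52.4% over all promoters. It did not set the 6 apart, since 11 of the other 24 also had 68.0% or more, among them *Wnt4* (85.2%), *Wnt9a* (84.4%) and *Wnt11* (70.8%). Printed here are *Wnt7a* (chr6:91411364-91411603, minus strand), *Wnt3* (chr11:103773925-103774149, plus strand) and *Wnt6* (chr1:74771642-74771891, plus strand), which fell, and *Wnt11* (chr7:98834862-98835111, plus strand), each 5′ to 3′ up to the start of the gene, with the motif in capitals.
Wnt7a: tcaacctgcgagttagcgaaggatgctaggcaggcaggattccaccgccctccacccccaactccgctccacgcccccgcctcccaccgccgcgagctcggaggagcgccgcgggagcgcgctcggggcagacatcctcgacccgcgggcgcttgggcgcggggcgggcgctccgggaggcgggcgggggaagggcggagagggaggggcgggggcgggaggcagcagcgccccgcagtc
Wnt3: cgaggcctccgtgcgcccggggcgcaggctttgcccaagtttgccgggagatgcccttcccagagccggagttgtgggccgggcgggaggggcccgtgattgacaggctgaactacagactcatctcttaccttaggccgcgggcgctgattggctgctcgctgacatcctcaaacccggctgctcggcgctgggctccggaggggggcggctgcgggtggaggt
Wnt6: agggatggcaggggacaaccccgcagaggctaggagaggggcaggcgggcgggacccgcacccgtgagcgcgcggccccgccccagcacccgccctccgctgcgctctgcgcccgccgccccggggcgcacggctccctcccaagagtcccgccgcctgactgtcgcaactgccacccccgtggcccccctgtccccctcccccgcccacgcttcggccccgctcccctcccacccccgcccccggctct
Wnt11: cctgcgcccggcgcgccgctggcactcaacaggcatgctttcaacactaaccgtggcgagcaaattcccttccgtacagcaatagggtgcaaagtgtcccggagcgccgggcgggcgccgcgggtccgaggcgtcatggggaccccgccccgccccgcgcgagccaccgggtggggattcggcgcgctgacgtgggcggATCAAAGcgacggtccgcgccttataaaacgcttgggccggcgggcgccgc

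The ligand with the highest level per length was *Wnt4*, which acts in the neuromuscular junction and in kidney and gonad, with 10.6 ± 0.57 CPM per kb of exon in WT (SD, n = 3). It was at 42.6, 47.0 and 43.2 CPM in WT and 29.8, 35.5 and 34.4 CPM in KO (log2 fold change -0.41 ± 0.07, SE; edgeR adjusted p = 0.000936), a difference of less than 1.5-fold without overlap. *Wnt10b*, a ligand that holds back fat formation, and *Wnt16*, expressed in bone and joint, were likewise lower by less than 1.5-fold. The WT and KO means of *Wnt10b* were 17.3 and 11.9 CPM, and those of *Wnt16* 3.76 and 2.66 CPM.

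*Wnt11*, a ligand of the polarity branch with a role in muscle fibre elongation, was the ligand with the largest higher level in KO. It was at 11.2, 11.8 and 11.8 CPM in WT and 16.6, 16.5 and 15.7 CPM in KO (log2 fold change 0.49 ± 0.06, SE; edgeR adjusted p = 9.69e-05), again less than 1.5-fold. For 5 ligands the adjusted p was 0.05 or more, namely for *Wnt5a*, the main polarity ligand of limb mesenchyme (mean 55.6 CPM in WT and 59.6 CPM in KO), *Wnt2*, *Wnt2b*, *Wnt5b* and *Wnt1*. *Fbxl14*, on the other strand, overlaps the gene body of *Wnt5b* and held 1961 to 2273 counts, and the strand setting of the counting is not stated. *Wnt8a* and *Wnt8b* were not tested, with 0 to 3 and 1 to 6 counts a sample.

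Summed over the 19 ligands, the level per length was 52.1 ± 3.36 CPM per kb in WT and 38.9 ± 0.62 CPM per kb in KO (SD, n = 3 each). The lowest WT sample, at 49.6, lay above the highest KO sample, at 39.6. The 7 ligands that fell made up 14.9 ± 1.95 CPM per kb in WT and 3.09 ± 0.35 CPM per kb in KO, or 28.6% and 7.95% of the ligand sum. The 12 others summed to 37.1 ± 1.43 CPM per kb in WT and 35.8 ± 0.88 CPM per kb in KO, with overlap between the genotypes. *Wnt7b* thus went from 12.3% to 1.16% of the sum and *Wnt3* from 5.60% to 1.4996%, while the shares of *Wnt5a* (13.6% and 19.6%), *Wnt11* (5.39% and 10.1%) and *Wnt9a* (8.19% and 14.0%) were larger in KO. Shares sum to a whole, so a larger share is not by itself a higher level. The split into ligands that fell and others follows from the calls and is a description.

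**Figure D3:**
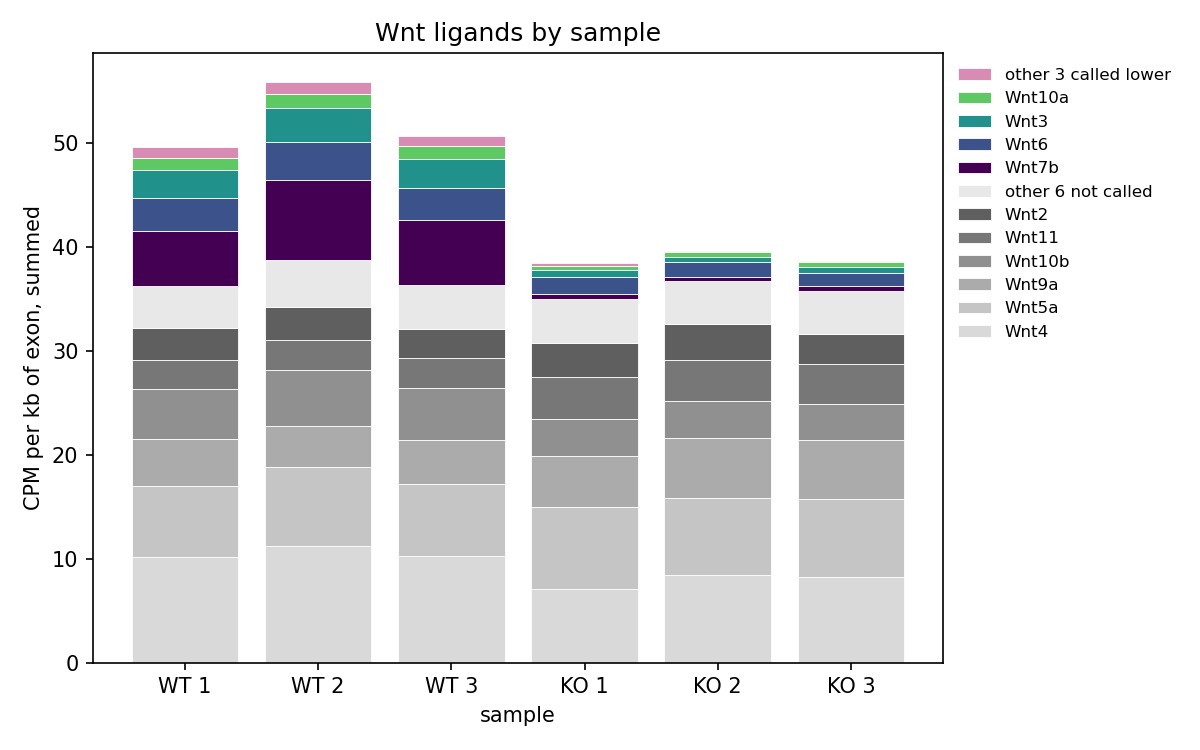
CPM per kb of exon summed over the 19 Wnt ligands in each of the 6 samples, with the ligands called lower in colour above the others in grey. The coloured part shrinks from 13.3 to 17.1 in the WT samples to 2.87 to 3.50 in the KO samples, while the grey part spans 36.3 to 38.8 in WT and 35.0 to 36.7 in KO.

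Of the 10 Frizzled receptors, 2 fell, 3 were higher and 1 was lower by less than 1.5-fold, and 4 had an adjusted p of 0.05 or more. Over all genes tested, 8.39% fell, and 13.6% were higher and 14.7% lower by less than 1.5-fold. *Fzd10*, a receptor for beta-catenin ligands, was at 23.1, 32.5 and 25.04 CPM in WT and 12.6, 13.8 and 13.6 CPM in KO (log2 fold change -1.01 ± 0.11, SE; edgeR adjusted p = 8.97e-05). The KO mean was 49.7% of the WT mean, and WT replicate 2 was again the highest. *Fzd3*, a polarity receptor of axons and hair follicles, was at 17.9, 17.6 and 17.2 CPM in WT and 12.3, 10.7 and 11.8 CPM in KO (log2 fold change -0.60 ± 0.06, SE; edgeR adjusted p = 6.79e-05). It lay just past the fold threshold and was no longer called with upper-quartile scaling (-0.53), without WT replicate 1 (-0.58) or without KO replicate 2 (-0.54), each with an edgeR adjusted p of 0.000377 or less.

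*Fzd6*, the polarity receptor that orients hair follicles, was lower by less than 1.5-fold (mean 32.8 CPM in WT and 25.6 CPM in KO, without overlap). *Fzd7*, the receptor for Wnt7a on satellite cells, was higher by less than 1.5-fold (56.9 and 66.4 CPM), as were *Fzd4*, which serves blood vessels (89.6 and 101.9 CPM), and *Fzd1* (30.9 and 34.0 CPM). The receptor with the highest level per length was *Fzd2*, at 18.9 CPM per kb in WT and 17.7 in KO. Its samples overlapped, with 64.8, 73.7 and 69.6 CPM in WT and 68.7, 62.7 and 62.8 CPM in KO (log2 fold change -0.10, 95% confidence interval -0.23 to 0.03). Summed per length, the 10 receptors were at 81.3 ± 3.69 CPM per kb in WT and 77.9 ± 0.81 in KO (SD, n = 3 each), with overlap.

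The co-receptors did not pass the test. *Lrp5* was at 91.8, 112 and 103 CPM in WT and 101.2, 96.0 and 99.7 CPM in KO, with a log2 fold change of -0.05 (95% confidence interval -0.19 to 0.10). *Lrp6* had means of 92.3 and 92.7 CPM, with a log2 fold change of 0.01 (95% confidence interval -0.10 to 0.11). In both, the samples of the genotypes overlapped.

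*Axin2*, the target gene that reports beta-catenin signalling in many tissues, was at 37.4, 46.2 and 41.5 CPM in WT and 41.2, 42.0 and 42.6 CPM in KO. The KO values lay inside the range of the WT values, and the log2 fold change was 0.01 (95% confidence interval -0.14 to 0.16; edgeR adjusted p = 0.942). The sign of this value changed with the scaling, at -0.06 with library size alone.

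Among the secreted antagonists, *Dkk4*, a Dickkopf made in hair placodes, was at 2.12, 2.11 and 1.47 CPM in WT and 0.288, 0.189 and 0.319 CPM in KO. It fell by 2.83 ± 0.22 on the log2 scale (SE; edgeR adjusted p = 8.00e-06), and the 18 to 31 counts of the KO samples stood against 155 to 201 in WT. The Dickkopf with the highest level per length was *Dkk3*, a divergent member of the family, which was higher in KO by less than 1.5-fold. It was at 84.7, 74.0 and 82.1 CPM in WT and 99.4, 99.3 and 96.9 CPM in KO (log2 fold change 0.30 ± 0.05, SE; edgeR adjusted p = 0.00120). *Dkk2* was lower by less than 1.5-fold (46.5 and 40.1 CPM, with overlap), and *Dkk1*, a strong blocker of Lrp6, had means of 9.06 and 10.6 CPM (edgeR adjusted p = 0.0592).

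*Sfrp2*, a product of muscle connective tissue, had the highest level per length of all 47 genes, with 41.4 CPM per kb in WT and 38.4 in KO. It was at 91.4, 85.7 and 90.2 CPM in WT and 92.8, 79.2 and 76.2 CPM in KO (log2 fold change -0.11 ± 0.07, SE; edgeR adjusted p = 0.238), and KO replicate 1 lay above all WT samples. *Sfrp4* was higher (24.4 and 30.3 CPM) and *Sfrp5* lower (5.81 and 4.61 CPM), both by less than 1.5-fold and without overlap. *Sfrp1* had means of 35.1 and 37.7 CPM (edgeR adjusted p = 0.0882).

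The 4 R-spondins and 3 Lgr receptors held no called gene under edgeR. At an adjusted p under 0.05, 2 R-spondins and 1 Lgr receptor were higher in KO by less than 1.5-fold (13.6% of all genes tested). At an unadjusted p under 0.05, 2 R-spondins and 2 Lgr receptors had a higher level in KO (25.3% of all genes tested). *Rspo3*, the R-spondin with the highest level per length and an agonist in vessels and mesenchyme, was at 16.2, 16.05 and 15.99 CPM in WT and 19.6, 18.6 and 18.3 CPM in KO (log2 fold change 0.23 ± 0.05, SE; edgeR adjusted p = 0.00603). *Rspo1* was higher by less than 1.5-fold as well (3.79 and 5.16 CPM), *Rspo2*, which patterns the limb, had means of 6.69 and 6.05 CPM, and *Rspo4*, known from nail growth, was near 0.3 CPM in both, with an antisense gene of up to 42.9% of its counts.

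*Lgr4*, the receptor of this group with the highest level per length, was at 44.1, 41.1 and 41.4 CPM in WT and 46.5, 48.8 and 49.0 CPM in KO (log2 fold change 0.19 ± 0.04, SE; edgeR adjusted p = 0.00594, less than 1.5-fold). *Lgr5* had means of 18.5 and 20.99 CPM and *Lgr6*, a stem cell gene of skin, of 21.4 and 20.7 CPM, and neither passed the adjusted p.

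By level per length over all samples, the order began with *Sfrp2*, *Dkk3*, *Fzd2*, *Fzd4*, *Fzd7*, *Dkk2*, *Lrp5*, *Wnt4*, *Sfrp1* and *Fzd1*. None of the 10 genes that fell was among these first 10, and *Fzd10* came highest of them at rank 16 and *Wnt7b* at rank 24. *Fzd7* and *Dkk2* had the same level to 3 digits in WT, 12.6 CPM per kb, and so cannot be ordered there.

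Keratinocyte genes fell along with the ligands. The 7 basal keratinocyte markers summed to 2326, 2768 and 2372 CPM in WT and 636, 575 and 563 CPM in KO, 23.8% of the WT mean. The 12 suprabasal ones summed to 17298, 26074 and 19272 CPM in WT and 667, 884 and 853 CPM in KO, 3.84% of the WT mean. The 7 ligands that fell, summed per length, were at 20.7% of their WT mean, and a low sum follows from their choice by calls. Singly, *Wnt7b* was at 7.06%, *Wnt7a* at 11.9%, *Wnt3a* at 19.2% and *Wnt3* at 19.9%, between the values of the marker sums. *Wnt10a* (36.2%), *Wnt6* (43.1%) and *Wnt9b* (51.1%) lay above both marker sums. Within WT, replicate 2 was highest for both sums, for 7 of the 10 genes that fell and for 19 of the 35 that did not (54.3%). None of the marker genes was at 0 in a sample, and *Krt14* of the basal layer was at 417 to 461 CPM in WT and 67.1 to 80.0 CPM in KO.

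In bulk RNA, fewer cells of a type and less RNA per cell cannot be told apart. The part that the amount of epidermis in the samples has in the falls of the ligands was not tested. Without WT replicate 2, 9 of the 45 genes were called lower. *Wnt9b* was lost, as it was without WT replicate 1 or 3 or KO replicate 2 or 3. This is no test of the part of epidermis, since the other WT samples held 17298 and 19272 CPM of suprabasal markers. The 10 hair follicle markers, which include placode genes, summed to 88.6 CPM in WT and 49.0 CPM in KO. Of the 9 tested, 3 fell and 2 rose (8.39% and 8.31% of all genes tested). Of 9 fibroblast markers edgeR called 0, with 5 higher at an adjusted p under 0.05 but by less than 1.5-fold (13.6% of all genes tested). They summed to 28663 to 31666 CPM in WT and 34864 to 36048 CPM in KO.

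**Figure D4:**
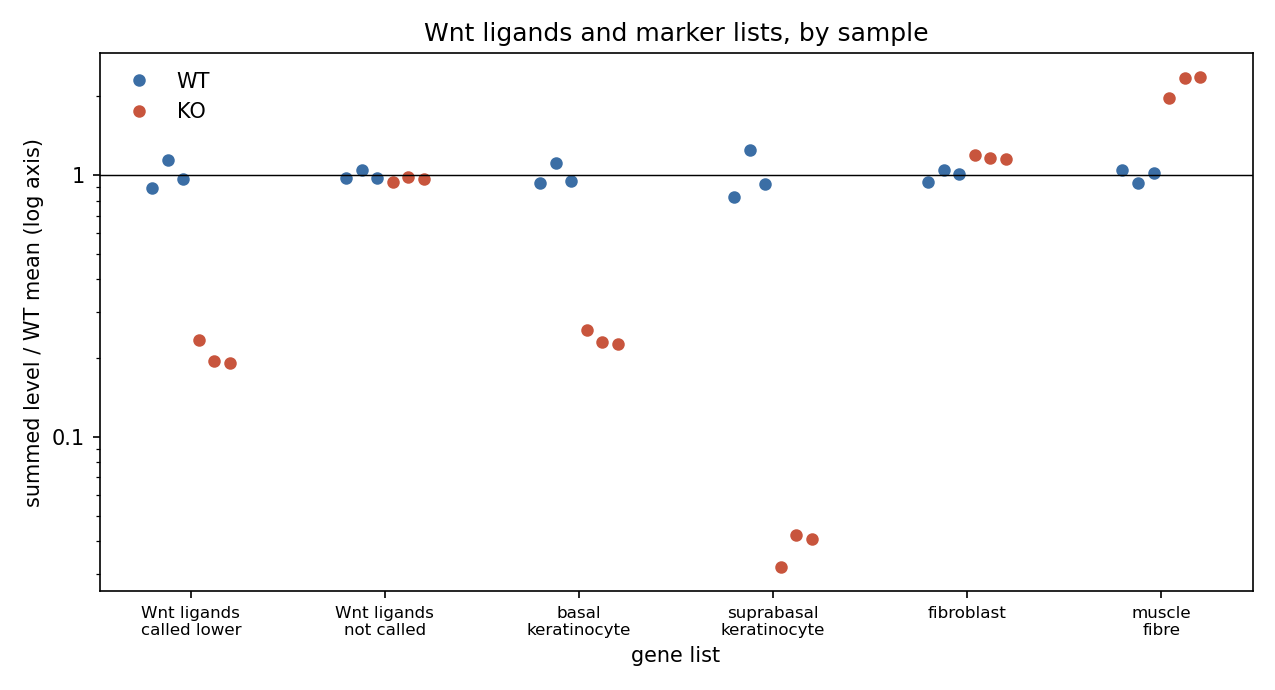
Summed level of each list in each sample divided by its WT mean (log axis), for the Wnt ligands called lower and not called (CPM per kb) and for 4 marker lists (CPM), with WT and KO samples in 2 colours. The ligands called lower are at 20.7% of WT in KO and those not called at 96.5%, a split that follows from the calls. The basal keratinocyte markers are at 23.8%, the suprabasal ones at 3.84%, the fibroblast markers at 117% and the muscle fibre markers at 223%.

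The rest of the pathway was read from 7 lists with 65 genes, 64 of them tested. Of these, 3 rose (4.69%, against 8.31% of all genes) and 8 fell (12.5%, against 8.39%), with 8 higher and 16 lower by less than 1.5-fold and a median log2 fold change of -0.05. In ligand secretion, *Porcn*, *Wls* and *Notum* gave 0 calls by edgeR, with 1 higher by less than 1.5-fold at an adjusted p under 0.05. At an unadjusted p under 0.05, 2 were higher (25.3% of all genes tested). *Wls*, the carrier of Wnts to the cell surface, had means of 128 and 141 CPM.

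Of the 12 other secreted antagonists and co-receptor partners, 3 rose and 2 fell (8.31% and 8.39% of all genes tested). Only the 4 called genes with the lowest adjusted p are named here, so 1 that rose is left out. *Dkkl1*, a Dickkopf-like secreted protein, fell from 31.6, 46.6 and 36.0 CPM in WT to 1.37, 1.89 and 1.62 CPM in KO (log2 fold change -4.55 ± 0.17, SE; edgeR adjusted p = 1.03e-07), more than any ligand. *Kremen2*, a receptor for Dkk proteins, fell from 14.3, 17.8 and 15.7 CPM to 4.96, 4.46 and 4.21 CPM (log2 fold change -1.81 ± 0.10, SE; edgeR adjusted p = 6.34e-07). *Sost*, the antagonist made by osteocytes, rose from 0.809, 1.09 and 1.23 CPM to 3.57, 4.16 and 4.17 CPM (log2 fold change 1.92 ± 0.15, SE; edgeR adjusted p = 6.21e-06). *Frzb*, a Wnt-binding protein of cartilage, rose from a mean of 16.9 to 26.0 CPM (log2 fold change 0.62 ± 0.07, SE; edgeR adjusted p = 8.06e-05).

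*Sost* and *Frzb* belong to bone and cartilage, whose marker lists moved in part. Of 7 bone markers 2 rose and 1 fell (8.31% and 8.39% of all genes tested), with sums of 914 to 955 CPM in WT and 871 to 951 CPM in KO. Of 10 cartilage markers 6 fell, with sums of 631 to 767 CPM and 591 to 596 CPM. The part of bone and cartilage in these values was not tested. *Frzb* was no longer called with library size alone (0.55) or without KO replicate 2 (0.58).

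Among the 7 receptor ligases and co-receptors, *Rnf43*, which removes Frizzled from the surface, was the 1 gene that fell (8.39% of all genes tested). It went from 5.49, 7.08 and 5.89 CPM to 2.32, 2.21 and 2.43 CPM (log2 fold change -1.41 ± 0.11, SE; edgeR adjusted p = 6.04e-06). Of the 11 genes of the beta-catenin destruction complex and Dishevelled, 0 were called by edgeR. At an adjusted p under 0.05, 2 were higher and 3 lower by less than 1.5-fold (13.6% and 14.7% of all genes tested). At an unadjusted p under 0.05, 3 were higher and 3 lower (25.3% and 26.6% of all genes tested). Of the 10 genes for beta-catenin and its nuclear partners, 1 fell (8.39% of all genes tested). This was *Lef1*, the DNA-binding partner of beta-catenin in skin and hair. It was at 21.9, 30.04 and 24.0 CPM in WT and 15.1, 12.7 and 12.9 CPM in KO (log2 fold change -0.90 ± 0.12, SE; edgeR adjusted p = 0.000198), and WT replicate 2 was again highest.

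*Lef1* and *Rnf43* were also the 2 called genes among the 14 tested feedback and target genes, and they fell, with 1 higher and 5 lower by less than 1.5-fold. Over all genes tested, 8.39% fell, with 13.6% higher and 14.7% lower by less than 1.5-fold. Of the 13 genes for planar cell polarity, by which epithelial cells align in a plane, 4 fell and 0 rose by edgeR (8.39% and 8.31% of all genes tested). At an unadjusted p under 0.05, 7 were lower and 1 higher (26.6% and 25.3% of all genes tested). The 4 that fell were *Celsr1* (mean 33.6 CPM in WT and 12.4 CPM in KO), *Celsr2* (38.9 and 15.7 CPM), *Celsr3* (1.28 and 0.629 CPM) and *Vangl2* (28.4 and 17.1 CPM). Their log2 fold changes were -1.44, -1.31, -1.02 and -0.73. The samples of the genotypes did not overlap in any of the 4.

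**Figure D5:**
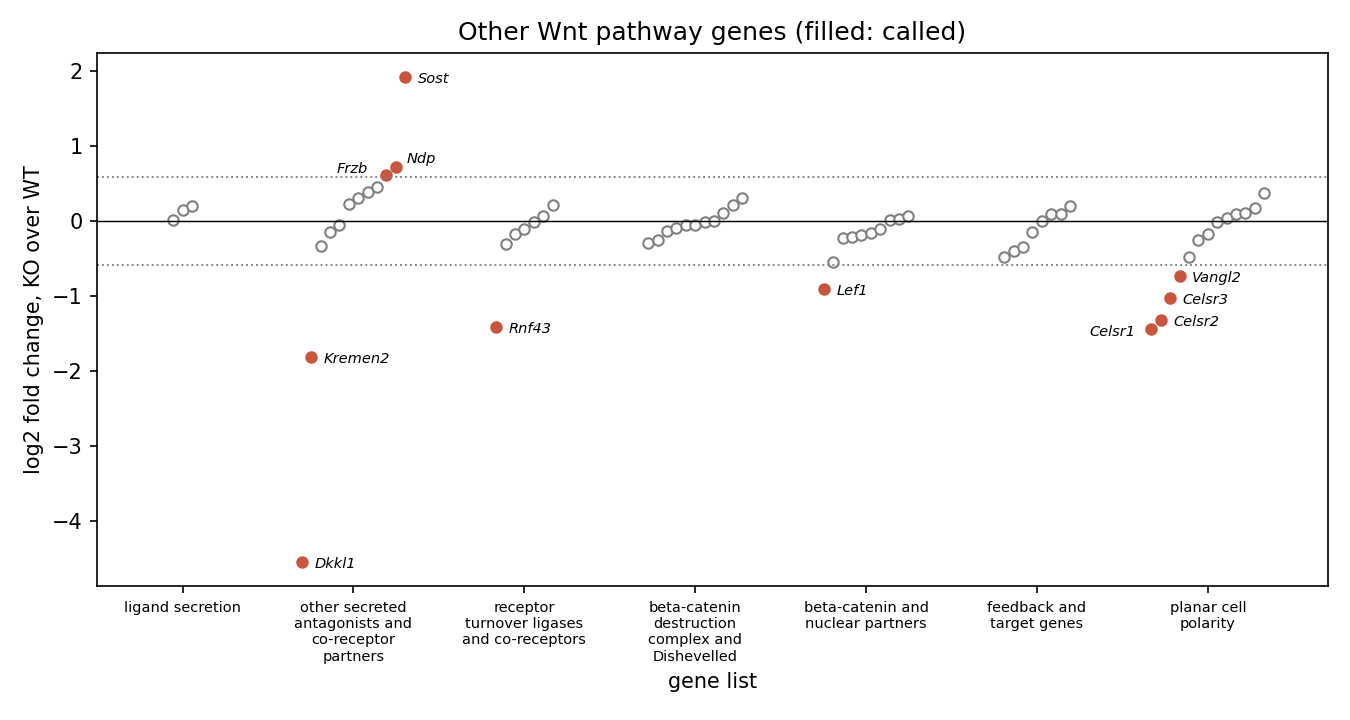
Log2 fold change of KO over WT for the 64 other pathway genes tested, by list, where filled and named points are the 11 called genes and dotted lines mark a 1.5-fold difference. A gene in several lists is drawn in its first list only, and *Dkkl1* at -4.55 and *Sost* at 1.92 are the extremes.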

How the data were processed

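RNA of 3 WT and 3 KO samples of fetal leg muscle was sequenced at embryonic day 18.5. The authors trimmed paired reads with Trim Galore 0.6.6, mapped them to mm10 with HISAT2 2.2.1 and deposited raw counts per gene from featureCounts 2.0.1, without normalization. The annotation and the strand setting of the counting are not given in the sources used here. Gene symbols, positions and exon lengths came from GENCODE M21. Counts were tested in R 4.3.3 with edgeR 4.0.16 (filterByExpr, TMM, quasi-likelihood F-test on genotype alone), with Benjamini-Hochberg adjustment over 22071 genes. Calls needed an adjusted p under 0.05 and more than a 1.5-fold difference. CPM used TMM-scaled library sizes, and levels of different genes were compared as CPM per kb of exon. Depth was 82054811 to 102233181 counts per sample, and samples of a genotype differed by more than sampling noise (mean chi-square per gene 4.85 to 32.9, where noise gives 1).

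The genes, the 7 pathway lists and the 14 marker lists were chosen with earlier results of these data known. The result of 1 marker list is not reported here. Named with all samples were called genes and the highest gene per length in each family. The other tested genes were named by group means or counted. Of the pathway lists, called genes were named, at most 4 a list by lowest adjusted p. *AU022754*, *Gm29539*, *Fbxl14*, the neighbouring pairs and the values of *Wnt11* and *Wnt9a* by sample were named after their values were seen. Alternatives were RLE or upper-quartile factors, library size alone, DESeq2 1.42.0, limma-voom (limma 3.58.1), no filter, a replicate block, a minimum of 10 counts in every sample, other fold thresholds and leaving out each sample. Sequences were read from RefSeq promoters of GRCm38.p6, and bases inside the GENCODE gene were not printed.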

Additional observations from a re-analysis of the deposited data

How the results depend on the processing

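Of the 10 genes that fell, 8 kept their call in all 14 alternative fits, *Fzd3* in 11 of 14 (log2 fold change -0.66 to -0.53) and *Wnt9b* in 5 of 13 (-1.29 to -0.70). *Wnt9b* was lost with upper-quartile factors, DESeq2, the replicate block and the omission of any sample but KO replicate 1. Calls as lower were gained by *Wnt10b* with library size alone (-0.61) and by *Wnt16* without WT replicate 1 (-0.60). Counts of called genes depended on the fold threshold. Without it, 10 members were higher and 16 lower in place of 0 and 10. Likewise, 11 other pathway genes were higher and 24 lower in place of 3 and 8. A fold over 2 left 8 members lower and 0 higher, and 6 other pathway genes lower and 1 higher. Leaving out each sample in turn gave 8 to 10 members lower and 0 higher, 2 to 3 other pathway genes higher and 8 lower, and kept 9 to 10 of the first 10 by level per length. Among genes not called, the sign turned with upper-quartile factors in *Wnt5b* (0.0353), *Fzd8* (0.00637), *Lgr6* (0.0210) and *Lrp5* (0.0231), and with library size alone in *Lrp6* (-0.0627) and *Axin2* (-0.0605). Leaving out a sample gave *Rspo4* -0.22 (WT replicate 3) to 0.16 (WT replicate 2), *Lrp6* -0.0143 (WT replicate 2) to 0.0520 (KO replicate 1), *Lrp5* -0.12 (WT replicate 1) to 0.0223 (WT replicate 2) and *Axin2* -0.0658 (WT replicate 1) to 0.0846 (WT replicate 2). The cause of these changes was not tested. Of all genes called, 49.8% were higher, with 56.7% under upper-quartile factors and 42.3% under library size alone. With the replicate number as a block, 9 members were lower and 0 higher, and 8 other pathway genes were lower and 3 higher. Samples with the same number are not paired by the labels, and their deviations correlated at -0.20, -0.13 and 0.05. *Wnt9b*, *Wnt8a* and *Wnt8b* had too few counts for a firm value.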

Other observations

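Markers of other cell types that the report does not describe moved unevenly, where 8.31% of all genes tested rose. All 6 fat markers rose, with a summed level of 105 to 137 CPM in WT and 340 to 402 CPM in KO, and 4 of 6 macrophage markers rose (223 to 235 and 353 to 387 CPM). Of 6 smooth muscle and pericyte markers 2 rose (*Myh11* and *Des*, the latter also a muscle fibre gene), and of 4 tendon markers 1 rose (*Fmod*). Of 7 endothelial markers edgeR called 0. Of these, 5 were higher by less than 1.5-fold at an adjusted p under 0.05, and 6 were higher at an unadjusted p under 0.05. Of 5 satellite cell and myoblast markers it called 0, with 2 lower and 3 lower by the same 2 rules. Over all genes tested, 13.6% were higher and 14.7% lower by less than 1.5-fold at an adjusted p under 0.05. At an unadjusted p under 0.05, 25.3% of all genes tested were higher and 26.6% lower.

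Within the hair follicle list, *Krt25* and *Krt71*, keratins of the inner root sheath, rose, with log2 fold changes of 5.15 and 3.22 from 0.02 to 0.11 CPM in WT, close to the limit of detection, to 0.76 to 1.69 CPM in KO. *Foxn1*, *Edar* and *Krt17* fell, by 2.87, 1.53 and 0.99 on the log2 scale, and *Shh* had means of 5.43 and 5.32 CPM. *Wnt10a*, *Dkk4* and *Lef1*, which are also known from hair placodes, fell.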
